A study of Gallus gallus with 16 samples.

Results

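The rows studied here are the genes of the cell cycle engine of chicken granulosa cells: the cyclins, the cyclin-dependent kinases (CDKs), the CDK inhibitors, the E2F transcription factors with their DP and RB-family partners, and the accessory proteins SKP2, CKS1B and CKS2. They were taken by gene symbol, and 62 of the 18151 gene rows matched, under 61 symbols. CDK3 stands on 2 rows that held almost no reads, and did not pass the filter on low counts. The other 60 rows passed it in each comparison, and counts of members below are over these 60. CDK4, CCNB1, CDKN1C and CDKN2D were not analysed here. The row named CCNB2 matches RefSeq (assembly GRCg7b) only as an older name of CCNB1, and its values are those of a B-type cyclin under either name.

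Granulosa cells are the somatic cells around the oocyte, and FOXL2 is a forkhead transcription factor that they express. Granulosa cells of White Leghorn hens aged 25 to 30 weeks were cultured from pre-ovulatory follicles (poGC) and from pre-hierarchical small yellow follicles of 6 to 8 mm (phGC), and were transfected with FOXL2-siRNA (KD) or with the nonsense NC-siRNA (CT). RNA was collected 48 h later and sequenced as 4 libraries per group, the groups being poGC-CT and poGC-KD for pre-ovulatory follicles, and phGC-CT with phGC-KD for pre-hierarchical ones. All 4 groups therefore share primary culture, serum and lipid transfection, and no untransfected cells were analysed here. The follicles came from 4 hens, but the sources used here do not say which library came from which hen, so that p-values measure the spread between libraries, which may be technical.

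In textbook accounts from mammalian cells, D-type cyclins with CDK4 or CDK6 begin the phosphorylation of RB in G1, and cyclin E with CDK2 completes it. The released E2F factors switch on the genes of DNA synthesis, cyclin A takes over in S phase, and cyclin B with CDK1 drives entry into mitosis. CDK inhibitors of the CIP/KIP family (CDKN1A, CDKN1B) bind cyclin-CDK complexes, and those of the INK4 family (such as CDKN2B and CDKN2C) bind CDK4 and CDK6. Proliferation of granulosa cells builds the follicle wall, and it slows as follicles differentiate towards ovulation. The roles given below are those known from mammals.

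The groups differ by the siRNA they received, so its strands are shown. Capitals mark the 19 bases that pair between the sense and the antisense strand, and lower case marks the overhang.
FOXL2-siRNA sense: GCCUCAACGAGUGCUUCAUtt
FOXL2-siRNA antisense: AUGAAGCACUCGUUGAGGCtt
NC-siRNA sense: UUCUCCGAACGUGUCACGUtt
NC-siRNA antisense: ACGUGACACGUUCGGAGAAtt

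Levels are given as normalized CPM (counts scaled to a common library size), adjusted by the TMM method over the 16 libraries. Fold changes come from edgeR's quasi-likelihood test, and a member was called higher or lower at a Benjamini-Hochberg adjusted p under 0.05 over all rows tested. FOXL2 lay at 394 to 503 CPM in poGC-KD and at 688 to 777 CPM in poGC-CT (p = 0.0286 by exact two-sided permutation, which is the lowest value that 4 libraries against 4 can give). In phGC it lay at 361 to 508 CPM in KD and at 471 to 681 CPM in CT, which overlapped (p = 0.0857 by the same exact permutation). Library totals ran from 36191442 to 56121795 counts in poGC and from 29979116 to 44937588 counts in phGC. All phGC libraries but phGC-KD replicate 1 lay below every poGC library. The part of depth in the differences between the cell types was not tested. No library stood apart from its group, and granulosa markers were present in each group. Among markers of other cells, the smooth muscle list summed to 829 to 1003 CPM in poGC-CT and 300.1 to 477 CPM in poGC-KD, and to 743 to 833 CPM in phGC-CT and 356 to 417 CPM in phGC-KD. Nearly all of that sum was ACTA2. Of its 5 genes, 3 were called lower and 1 higher in poGC-KD, and 2 lower in phGC-KD. The fibroblast list, mostly collagens, summed to 1327 to 1391 CPM in poGC-CT, 906 to 984 in poGC-KD, 5299 to 6183 in phGC-CT and 4848 to 6065 in phGC-KD. Theca, endothelial and leukocyte lists summed to lower levels, led by CYP17A1, by PECAM1 in poGC and CDH5 in phGC, and by CD74. CDH5 was called lower after knockdown in both cell types (log2 -1.65 in poGC and -0.75 in phGC), as was CD74 (log2 -0.39 and -0.50). No other endothelial or leukocyte gene tested was called. That left 3 endothelial genes not called in poGC and 2 in phGC, and 2 leukocyte genes in each. Over all rows tested, 15.2% were called higher and 13.6% lower after knockdown in poGC, and 5.06% and 4.91% in phGC. CYP19A1, SPI1, BMP15, DDX4 and the erythroid genes lay at or near 0. The part of these cells in the results below was not tested, and in such bulk samples fewer cells of a type and less RNA per cell cannot be told apart.

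Knockdown of FOXL2 went with a rise of the S phase and G2/M members in poGC. Of the 60 members, 26 were called in comp. poGC (poGC-KD against poGC-CT), 19 higher and 7 lower, where 28.8% of all rows tested were called, 15.2% higher and 13.6% lower. Most of the rises fell in 2 roles, which were drawn up with earlier results of these data known. RBL1, E2F7 and E2F8, all higher, were placed in the G1/S and S role and not with the other pocket proteins and repressor E2Fs. Of the 12 members of the G1/S and S role, 8 were higher and none was lower, with a median log2 fold change of 0.74, and of the 6 members of the G2/M role, 5 were higher, with a median of 0.78. The median over all rows tested was 0.01. None of the 4 members of the G1 role was higher, and 2 of 5 CDK inhibitors were lower. In comp. phGC (phGC-KD against phGC-CT) 7 of the 60 members were called, 4 higher and 3 lower, where 9.97% of all rows were called, 5.06% higher and 4.91% lower, so that the members' share was near the background. Under the study's rule (unadjusted p under 0.05 and fold above 1.5) 14 members passed for poGC, beside 11.2% of all rows, and 4 for phGC, beside 7.27%. That count of 7 moved with the processing, as did the share of all rows called. It was 15 with DESeq2 (6 higher, 9 lower), beside 16.4% of all rows. In a single fit of the 16 libraries it was 16 (6 higher, 10 lower), beside 17.4%. With the trend with gene length removed it was 13 (5 higher, 8 lower), beside 14.6%. With 1 library left out it was 2 without phGC-KD replicate 1, 2 or 4, 4 without phGC-KD replicate 3 or phGC-CT replicate 3, 3 without phGC-CT replicate 2 and 8 without phGC-CT replicate 1. Without phGC-CT replicate 4 it was 1, and none of the 7 was called. The share of all rows called in these fits ran from 4.73% (without phGC-CT replicate 4) to 13.9% (without phGC-CT replicate 1).

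**Figure D1:**
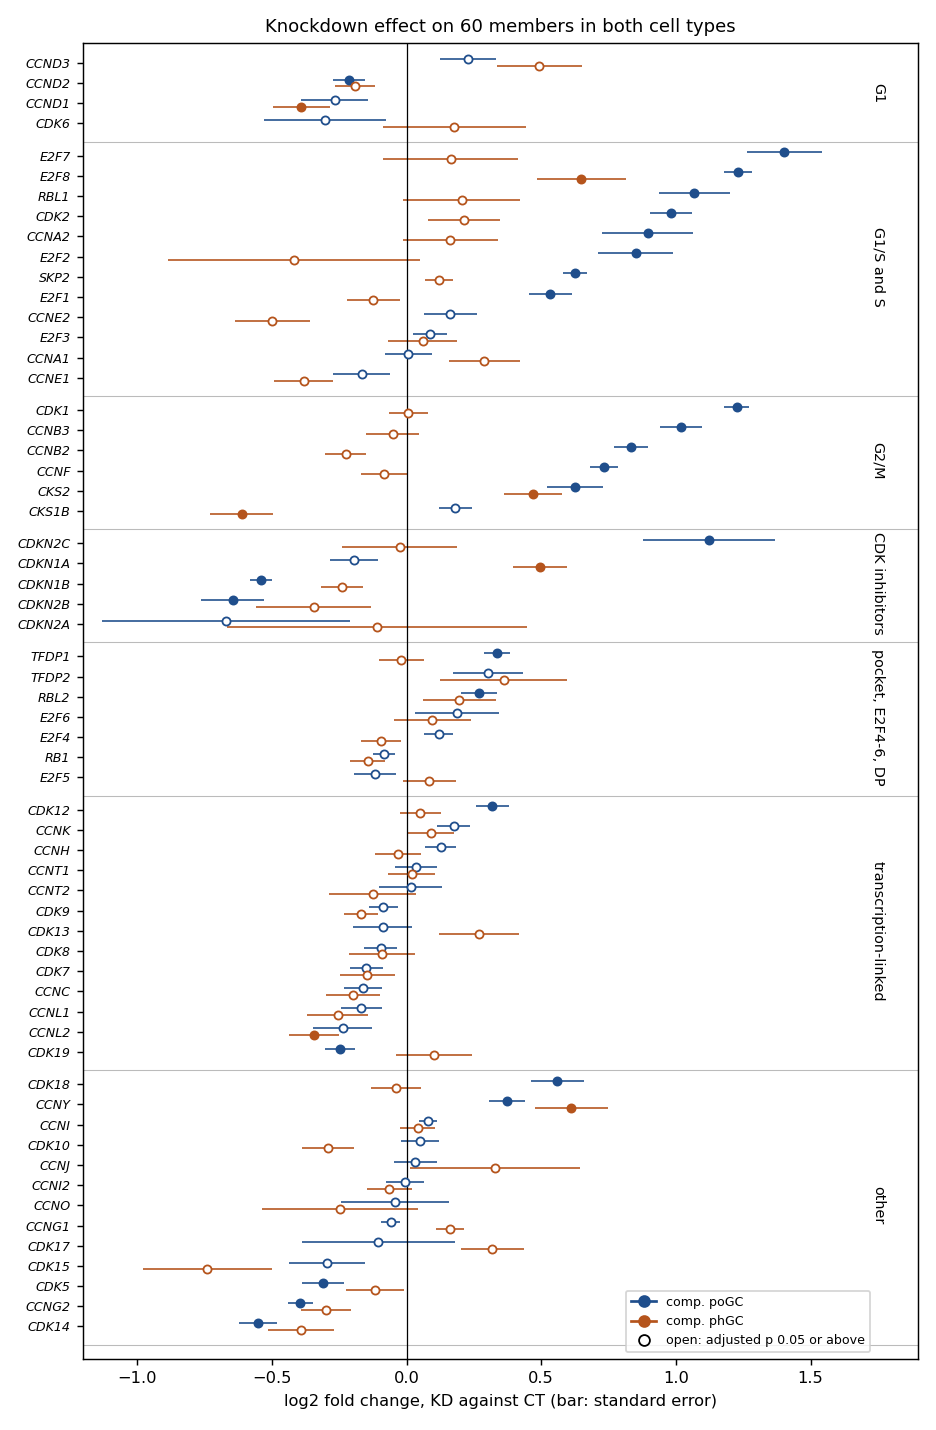
Log2 fold change of KD against CT for the 60 members in comp. poGC (blue) and comp. phGC (orange), by role, with standard errors as bars. Filled points passed an adjusted p of 0.05. In the S phase and G2/M blocks the blue points reach 1.40, while the orange points lie on both sides of 0, from -0.61 (CKS1B) to 0.65 (E2F8).

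CDK1, the kinase that drives mitosis, had the lowest adjusted p of the members in comp. poGC. It lay at 41.2, 43.9, 42.6 and 43.0 CPM in the poGC-CT libraries and at 91.9, 97.1, 100.2 and 105 CPM in poGC-KD. The poGC groups were far apart, and every poGC-KD library also lay above every phGC library. In phGC, CDK1 was at 76.5, 87.4, 83.0 and 84.1 CPM in CT and at 74.7, 86.8, 87.1 and 85.3 CPM in KD, which overlapped almost fully. This was a 2.34-fold rise in comp. poGC (log2 1.23, standard error 0.05, adjusted p = 1.76e-06), against a log2 value of 0.01 in comp. phGC (standard error 0.07, adjusted p = 0.963). An interaction term over the 16 libraries put the difference between both effects at 1.20 on the log2 scale (standard error 0.09, adjusted p = 1.14e-06).

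The cyclins of mitosis followed CDK1. The B-type cyclin CCNB2 lay at 77.1, 84.8, 85.6 and 73.1 CPM in poGC-CT and at 129.7, 140.3, 152 and 142 CPM in poGC-KD. Its phGC libraries lay at 149.7, 186, 167 and 165 CPM in CT and at 138, 135, 153 and 147 CPM in KD. CCNB2 thus rose 1.78-fold in poGC (log2 0.83, standard error 0.06, adjusted p = 3.42e-05), and in phGC its log2 fold change was -0.23 (adjusted p = 0.103, or 0.0397 without phGC-CT replicate 1). CCNB3, another B-type cyclin, had 27.5, 33.5, 31.1 and 30.2 CPM in poGC-CT against 64.4, 54.5, 64.8 and 60.7 CPM in poGC-KD, a 2.03-fold rise, and its phGC-CT (41.8 to 54.5 CPM) and phGC-KD (43.4 to 52.3 CPM) libraries overlapped. CCNF, the F-box cyclin that marks proteins for destruction in G2, rose 1.66-fold in poGC, from 22.9 to 24.2 CPM up to 36.5 to 41.1 CPM. The 3 cyclins differed in effect between the cell types, by 1.04, 1.05 and 0.79 on the log2 scale (adjusted p = 3.29e-05, 0.000133 and 0.000117).

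The small CDK-binding proteins CKS1B and CKS2 each differed from that pattern in phGC, where both were called. CKS2 rose in both cell types, from 5.18, 6.10, 7.08 and 6.07 CPM to 9.10, 9.81, 9.53 and 8.73 CPM in poGC (log2 0.62, adjusted p = 0.0023) and from 10.4, 11.9, 11.6 and 11.6 CPM to 15.7, 18.6, 14.2 and 14.7 CPM in phGC (log2 0.47, adjusted p = 0.028). The groups did not overlap in either cell type, which held for 31.6% of all rows in comp. poGC and 18.4% in comp. phGC. CKS1B, which also serves the SKP2 ubiquitin ligase, lay at 41.2, 46.6, 44.8 and 43.5 CPM in poGC-CT and at 50.0, 49.8, 52.0 and 44.9 CPM in poGC-KD, which overlapped (log2 0.18, adjusted p = 0.0555). It was called higher there with DESeq2 (adjusted p = 0.0439), with the length trend removed (adjusted p = 0.00899) and without poGC-KD replicate 4 (adjusted p = 0.0246). In phGC it fell from 93.8, 116, 137 and 125 CPM to 68.6, 84.4, 78.2 and 79.3 CPM (log2 -0.61, standard error 0.12, adjusted p = 0.0137). Leaving out 1 library ended the phGC call of CKS2 for 6 of 8 libraries (phGC-KD replicates 1, 2 and 4 and phGC-CT replicates 2, 3 and 4, adjusted p up to 0.0799) and that of CKS1B for phGC-CT replicate 4 (adjusted p = 0.0502).

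**Figure D2:**
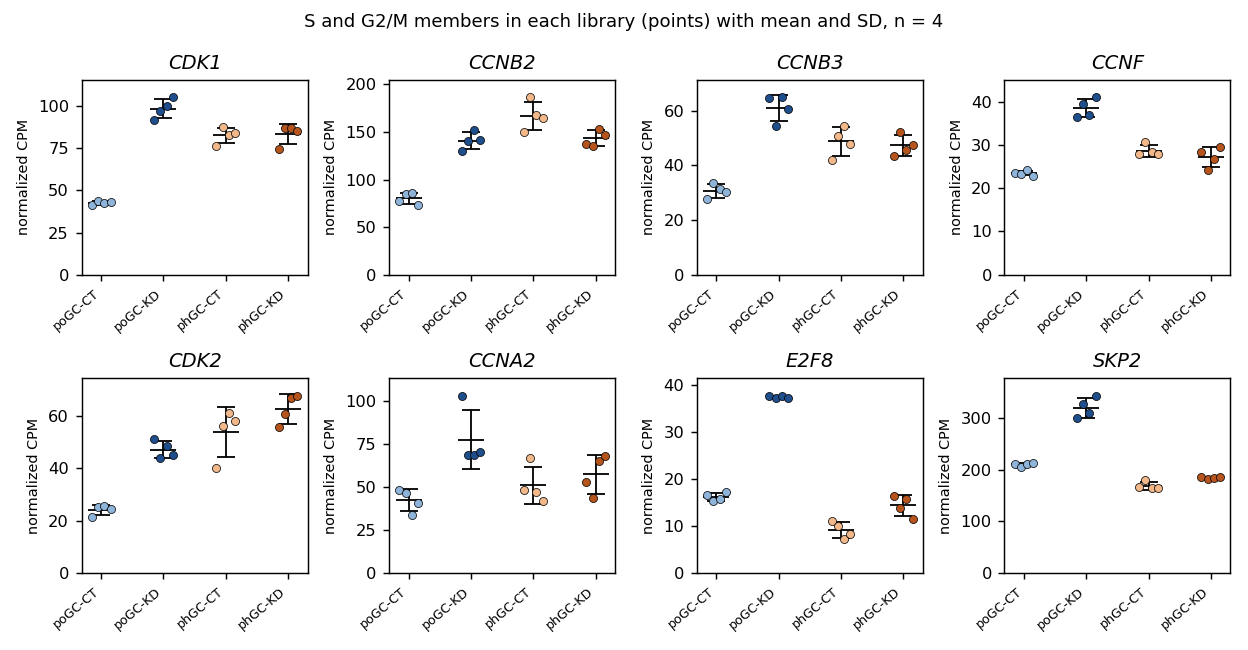
Normalized CPM of 8 S phase and G2/M members in each library (points), with the mean and SD of each group of 4. For CDK1, CCNB2 and CCNB3 the poGC-CT libraries lie lowest, and for CCNF they lie lowest apart from phGC-KD replicate 2. The poGC-KD libraries of CDK1, CCNB3 and CCNF lie within the range of the phGC libraries or above it. Those of CCNB2 reach that range apart from poGC-KD replicate 1 (129.7 CPM), which lies below it.

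Among the members of G1/S and S phase, CDK2, the partner of cyclins E and A, rose in poGC. Its libraries lay at 21.3, 25.2, 25.7 and 24.7 CPM in poGC-CT and at 51.1, 44.0, 48.6 and 45.0 CPM in poGC-KD (1.98-fold, adjusted p = 3.88e-05). The phGC libraries, at 40.2, 56.1, 61.3 and 58.3 CPM in CT and 55.7, 60.9, 67.0 and 67.8 CPM in KD, overlapped (log2 0.21, adjusted p = 0.346). CCNA2, the S phase cyclin, had 48.3, 46.5, 33.9 and 41.0 CPM in poGC-CT and 103, 68.5, 68.5 and 70.7 CPM in poGC-KD (log2 0.90, standard error 0.17, adjusted p = 0.00447). Its poGC-KD replicate 1 stood above the other 3, and the call held without it. In phGC the CCNA2 groups overlapped (log2 0.16, adjusted p = 0.596), and the difference between both effects was not called (log2 0.71, adjusted p = 0.12). CCNA1, the germ line A-type cyclin of mammals, had 8.57 to 9.56 CPM in poGC-CT and 7.96 to 10.1 CPM in poGC-KD (adjusted p = 0.964).

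The cyclins E did not follow CDK2. CCNE1 lay at 6.10 to 7.85 CPM in poGC-CT and 5.52 to 6.43 CPM in poGC-KD, and CCNE2 at 9.14 to 11.4 and 9.74 to 11.8 CPM, so that both overlapped (log2 -0.17 and 0.16, adjusted p = 0.284 and 0.254). In phGC both were below control in each KD library: CCNE1 had 11.3, 9.82, 11.8 and 9.33 CPM in CT and 8.12, 8.65, 7.62 and 8.15 CPM in KD, and CCNE2 had 11.7, 13.2, 10.3 and 11.1 CPM in CT and 8.25, 6.45, 9.39 and 8.71 CPM in KD. Such groups without overlap were found for 18.4% of all rows in comp. phGC. Neither difference was called (log2 -0.38 and -0.50, adjusted p = 0.0612 and 0.0552), although DESeq2 called both (adjusted p = 0.0182 and 0.0114). The effect on CCNE2 differed between the cell types by 0.64 on the log2 scale (adjusted p = 0.0309), a call that was lost in 6 of the 16 fits with 1 library left out, those without poGC-KD replicate 4, poGC-CT replicates 1, 3 and 4, phGC-KD replicate 1 or phGC-CT replicate 2, with adjusted p up to 0.0676.

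The E2F factors that end the S phase programme rose most. E2F7 and E2F8 are atypical E2Fs that repress E2F target genes late in S phase. E2F7 lay at 4.16, 3.77, 2.73 and 3.43 CPM in poGC-CT and at 8.71, 10.2, 9.12 and 8.71 CPM in poGC-KD, the largest fold change among the members of this comparison (2.64-fold, adjusted p = 0.000146). E2F8 lay at 16.6, 15.4, 15.7 and 17.2 CPM in poGC-CT and at 37.7, 37.3, 37.7 and 37.3 CPM in poGC-KD (2.35-fold, adjusted p = 2.83e-06). The 4 poGC-KD libraries of E2F8 were nearly equal. E2F8 was also higher in phGC-KD, at 16.4, 13.9, 15.7 and 11.5 CPM against 11.2, 9.91, 7.18 and 8.35 CPM in phGC-CT (log2 0.65, standard error 0.17, adjusted p = 0.0406). That call was lost without any of phGC-KD replicates 1, 2 and 3 or phGC-CT replicates 2, 3 and 4 (adjusted p up to 0.118). The difference between the effects on E2F8 in both cell types did not pass (log2 0.56, standard error 0.18, adjusted p = 0.0624), and it passed with DESeq2 (adjusted p = 0.0209). For E2F7, whose phGC libraries lay at 3.67 to 7.48 CPM in CT and 4.36 to 7.92 CPM in KD, it passed (log2 1.21, adjusted p = 0.0191).

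The activator E2Fs moved less. E2F1 lay at 24.7, 29.3, 27.3 and 26.1 CPM in poGC-CT and at 41.2, 40.3, 38.0 and 33.8 CPM in poGC-KD (1.45-fold, adjusted p = 0.00135), and at 31.0 to 38.2 CPM in phGC-CT and 31.2 to 37.9 CPM in phGC-KD. E2F2 had 3.54, 5.21, 5.50 and 4.54 CPM in poGC-CT and 8.94, 7.89, 8.48 and 8.12 CPM in poGC-KD (1.80-fold, adjusted p = 0.00211). In phGC, E2F2 was at 2.91, 8.64, 8.33 and 7.12 CPM in CT and at 7.01, 8.18, 2.36 and 2.75 CPM in KD, so that low and high libraries occurred in both groups, and with the spread of the 16 libraries in a single fit its poGC call was lost (adjusted p = 0.131). The difference between both effects on E2F2 was not called by the interaction test (log2 1.25, adjusted p = 0.177). E2F3 differed by 0.09 on the log2 scale in poGC and by 0.06 in phGC (adjusted p = 0.34 and 0.798).

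RBL1 and SKP2 completed the S phase rises. RBL1, the RB relative p107 whose gene is itself an E2F target in mammals, lay at 20.1, 19.7, 13.5 and 21.2 CPM in poGC-CT and at 39.2, 36.3, 40.3 and 38.1 CPM in poGC-KD (log2 1.07, adjusted p = 0.000473). In phGC it lay at 11.5, 12.2, 11.8 and 10.5 CPM in CT and 18.6, 8.08, 13.9 and 12.5 CPM in KD, which overlapped. The difference between both effects on RBL1 was not called by the interaction test (log2 0.84, adjusted p = 0.0676). It was called with DESeq2 (adjusted p = 0.0217) and with the length trend removed (adjusted p = 0.0298). SKP2, the ubiquitin ligase subunit that directs CDKN1B to destruction, lay at 211, 206, 210.4 and 214 CPM in poGC-CT and at 301, 327, 309.7 and 343 CPM in poGC-KD (1.54-fold, adjusted p = 2.16e-05). In phGC its 4 KD libraries, at 181 to 186 CPM, lay above its 4 CT libraries, at 164 to 179 CPM, but the difference of 0.12 on the log2 scale was not called (adjusted p = 0.176), and 18.4% of all rows had groups without overlap there. The effect on SKP2 was larger in poGC by 0.48 on the log2 scale (standard error 0.06, adjusted p = 0.000261).

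None of the D-type cyclins, which carry growth signals into G1, was called higher in the main edgeR fit of either knockdown comparison. CCND2 lay at 153, 145, 152 and 159 CPM in poGC-CT and at 140.2, 123, 122 and 134 CPM in poGC-KD (log2 -0.21, adjusted p = 0.0266). This fall was small, and leaving out poGC-KD replicate 2 or 3 or poGC-CT replicate 1 or 4 ended the call (adjusted p up to 0.062). CCND1 overlapped in poGC, with 69.8, 89.3, 75.6 and 103 CPM in CT and 59.2, 67.1, 74.4 and 75.7 CPM in KD, and was called lower in phGC, with 90.2, 71.1, 82.8 and 85.4 CPM in CT and 66.8, 52.6, 63.9 and 69.0 CPM in KD (log2 -0.39, adjusted p = 0.0483). The phGC call of CCND1 was lost in 7 of 8 fits with 1 library left out, all but that without phGC-CT replicate 2, with adjusted p up to 0.124. CCND3 had 22.2 to 30.3 CPM in poGC-CT and 29.0 to 33.8 CPM in poGC-KD, and 24.5 to 39.9 CPM in phGC-CT and 35.1 to 45.2 CPM in phGC-KD (log2 0.23 and 0.49, adjusted p = 0.141 and 0.085). In phGC, CCND3 was called higher with DESeq2 (adjusted p = 0.025), in the single fit of 16 libraries (adjusted p = 0.0239) and without phGC-CT replicate 4 (log2 0.67, adjusted p = 0.0194). CDK6 varied widely within groups, at 126, 109, 127 and 89.1 CPM in poGC-CT and 110.4, 83.2, 113 and 54.6 CPM in poGC-KD (adjusted p = 0.363). For none of these 4 did the effect differ between the cell types by the interaction test (adjusted p from 0.446 to 0.848).

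The CDK inhibitors went in different directions. CDKN1B (p27), which SKP2 marks for destruction as a protein, fell in poGC from 131, 135, 136 and 138 CPM to 90.0, 95.6, 94.7 and 86.5 CPM, or to 68.8% of control (adjusted p = 3.4e-05). In phGC it lay at 124, 114, 139.7 and 124 CPM in CT and 106, 117, 101 and 103 CPM in KD, which overlapped (log2 -0.24, adjusted p = 0.0888). That difference was called lower with DESeq2 (adjusted p = 0.0395) and in the single fit of 16 libraries (adjusted p = 0.0153). The difference between both effects was -0.32 on the log2 scale (adjusted p = 0.0247), and it was lost in 5 of 16 fits with 1 library left out, without poGC-KD replicate 1 or 4, poGC-CT replicate 4 or phGC-CT replicate 2 or 4 (adjusted p up to 0.0559). CDKN2B (p15) fell in poGC from 253, 243, 227 and 248 CPM to 116, 147, 174 and 175 CPM (64.0% of control, adjusted p = 0.00373), and its phGC libraries spread from 207 to 377 CPM in CT and from 182 to 299.5 CPM in KD. CDKN2C (p18) rose in poGC instead, from 21.5, 24.5, 9.81 and 17.9 CPM to 37.1, 44.4, 35.3 and 41.4 CPM (2.18-fold, standard error 0.24 on the log2 scale, adjusted p = 0.00902), and lay at 11.9 to 17.2 CPM in phGC-CT and 8.40 to 16.6 CPM in phGC-KD. By the interaction test the effects on CDKN2B and CDKN2C were not called different between the cell types (log2 -0.32 and 1.12, adjusted p = 0.533 and 0.0596). For CDKN2C the difference was called with DESeq2 (adjusted p = 0.0144).

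CDKN1A (p21), the inhibitor induced by p53, was higher after knockdown in phGC and not in poGC, and the test of that difference passed. It lay at 115, 128, 139.5 and 128 CPM in poGC-CT and at 126, 107, 111 and 96.7 CPM in poGC-KD, which overlapped (log2 -0.19, adjusted p = 0.147, or 0.0249 without poGC-KD replicate 1). In phGC it was higher in each KD library, at 139.9, 166, 145 and 158 CPM against 94.9, 101, 128 and 105 CPM (1.41-fold, adjusted p = 0.0167). Of all rows in comp. phGC, 18.4% had groups without overlap. The difference between the effects was -0.72 on the log2 scale (standard error 0.14, adjusted p = 0.00407). The rise in phGC lost its call without phGC-KD replicate 4 or phGC-CT replicate 2 or 4 (adjusted p up to 0.0608).

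**Figure D3:**
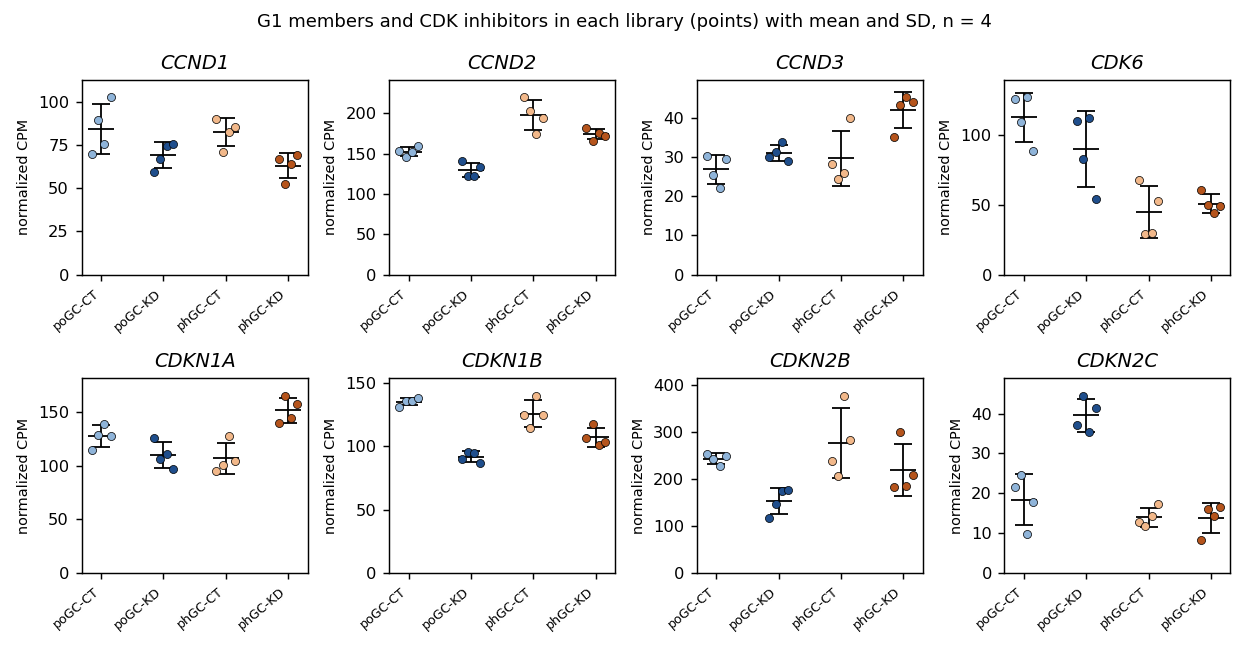
Normalized CPM of the G1 members and of 4 CDK inhibitors in each library (points), with the mean and SD of each group of 4. CDKN1B and CDKN2B fall and CDKN2C rises in poGC-KD, whereas CDKN1A is higher in phGC-KD and the D-type cyclins do not rise in poGC-KD beyond their spread.

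The pocket proteins other than RBL1, which hold E2Fs inactive, and the DP partners, which join E2Fs on DNA, had smaller fold changes in poGC than RBL1. TFDP1 rose from 22.0, 23.2, 22.0 and 21.9 CPM to 27.5, 29.0, 27.8 and 26.7 CPM (log2 0.34, adjusted p = 0.00109), and RBL2 from 16.4, 17.3, 17.8 and 18.8 CPM to 21.6, 21.0, 19.3 and 21.7 CPM (1.20-fold, adjusted p = 0.0157). The RBL2 call was lost in the single fit of 16 libraries (adjusted p = 0.105). RB1 lay at 92.2 to 96.7 CPM in poGC-CT and 84.1 to 92.9 CPM in poGC-KD (log2 -0.08, adjusted p = 0.178, and log2 -0.11, adjusted p = 0.0441, with the length trend removed), and TFDP2 overlapped too (log2 0.30, adjusted p = 0.125, or 0.00177 without poGC-CT replicate 3). None of the 7 members of this role was called in phGC in the main edgeR fit, with 0 at an unadjusted p under 0.05. RB1 was called lower there too with that trend removed (log2 -0.20, adjusted p = 0.0377).

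Cyclins and CDKs that act in transcription include CCNT1 and CDK9 of the elongation factor P-TEFb and CCNH and CDK7 of TFIIH. Most of them overlapped between KD and CT libraries in both knockdown comparisons. In comp. poGC, 4 of the 13 did not overlap, where 31.6% of all rows did not. Of these, CDK7 and CDK9 lay lower in KD without being called (adjusted p = 0.102 and 0.271). Among the 13 transcription-linked members, CDK12 was higher (1.25-fold, adjusted p = 0.00485) and CDK19 lower (log2 -0.25, adjusted p = 0.00987) in comp. poGC. CCNL2 was lower in comp. phGC (log2 -0.34, adjusted p = 0.0495). Of the 13 other cyclins and CDKs, CDK18 (1.47-fold) and CCNY (1.29-fold) were higher and CDK14, CCNG2 and CDK5 lower in comp. poGC, CDK14 at 68.3% of control. CCNY was also higher in comp. phGC (1.53-fold, adjusted p = 0.0254). In these 2 roles together, the largest absolute log2 fold change called in either knockdown comparison was 0.61, against 1.40 in the S phase role.

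The genes around the engine were read from lists of its regulators and targets. Beside them, 15.2% of all rows tested were called higher and 13.6% lower in comp. poGC, and 5.06% and 4.91% in comp. phGC. The E2F targets and proliferation markers were mostly higher in comp. poGC. Of 17 textbook E2F targets, 15 were higher and none was lower in comp. poGC, with a median log2 fold change of 0.98, and 2 were lower in comp. phGC, with a median of -0.02. MCM3, a subunit of the replicative helicase, rose from 32.7 to 82.6 CPM in the mean of poGC (log2 1.35, adjusted p = 1.76e-06) and stood at 68.4 and 67.7 CPM in phGC-CT and phGC-KD. RRM2, a subunit of ribonucleotide reductase, rose from 79.7 to 177 CPM in poGC (log2 1.17) and fell from 182 to 143 CPM in phGC (log2 -0.35, adjusted p = 0.0232). CDC6 and POLA1 were the 2 targets not called in comp. poGC. All 8 proliferation markers were higher in comp. poGC (median 1.13) and none was called in comp. phGC, where their log2 fold changes ran from -0.44 for CENPE to 0.15 for AURKA, the 2 with an unadjusted p under 0.05. MKI67 went from 35.5 to 89.7 CPM in poGC, and was at 17.5 CPM in both phGC groups.

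The other lists were mixed. The shares over all rows tested were again 15.2% higher and 13.6% lower in comp. poGC, and 5.06% and 4.91% in comp. phGC. Of 5 kinases and phosphatases that act on CDKs, CDC25A, CDC25B and CDKN3 were higher in comp. poGC, and WEE1, which inhibits CDK1, was lower in comp. phGC (log2 -0.33, adjusted p = 0.00722). Of 17 genes of cyclin and inhibitor destruction, 8 were higher in comp. poGC, among them UBE2C, the ubiquitin-conjugating enzyme of the anaphase-promoting complex (log2 1.22, adjusted p = 2.51e-05), and 1 in comp. phGC, CDC16 (log2 0.44, adjusted p = 0.0152). In the list of MuvB, MYB and FOXM1, which drive late cell cycle genes, FOXM1, MYBL1, LIN9 and LIN54 were higher and RBBP4 lower in comp. poGC, and RBBP4 was also lower in comp. phGC (log2 -0.47 in both). Of 11 p53 targets and regulators beside CDKN1A, none was called higher in either comparison and 4 were lower in comp. poGC (BTG1, BTG2, PLK2 and TP53INP1) and 3 in comp. phGC (BTG2, PLK2 and TP53INP1).

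The follicle stage was then compared within each siRNA treatment. These comparisons share their libraries with the knockdown comparisons, so their values are given side by side and are not separate evidence. In CT cells (poGC-CT against phGC-CT) 38 of 60 members were called, 19 higher and 19 lower in poGC, where 64.0% of all rows were called, so the count itself was near the background. Among the roles, G2/M stood out by direction: all 6 of its members were lower in poGC-CT, with a median log2 difference of -0.93. The median of all rows was 0.00, and 31.5% of all rows were called lower and 32.5% higher. Genes outside the members also leaned that way. Of the 17 E2F targets 14 were lower and 1 higher in poGC-CT (median -0.78), and of the 8 proliferation markers 6 were lower and 2 higher (median -0.495). Under the study's rule 22 members passed, beside 41.7% of all rows. CDK1 stood at 51.3% of phGC-CT (log2 -0.96, adjusted p = 1.54e-06), CCNB2 at 47.7% (log2 -1.07) and CKS1B at 37.0% (log2 -1.43). The S phase role was split, with CDK2 (log2 -1.16), CCNA1 (log2 -1.36), CCNE1 (log2 -0.66) and E2F1 (log2 -0.43) lower and E2F8, RBL1, E2F3 and SKP2 higher in poGC-CT. Of the G1 role, CDK6 was higher (2.49-fold, log2 1.32, adjusted p = 0.00292, and log2 0.64, adjusted p = 0.0219, with the length trend removed) and CCND2 lower (log2 -0.39, adjusted p = 0.00146). None of the 5 CDK inhibitors was called between the stages in CT cells in the main edgeR fit, where 1 of them, CDKN1A, had an unadjusted p under 0.05 (log2 0.24, adjusted p = 0.0508). CDKN1A was called higher in poGC-CT with DESeq2 (adjusted p = 0.0388), both other filters on low counts (adjusted p = 0.0391 and 0.0479), the single fit (adjusted p = 0.0406) and without poGC-CT replicate 1 or phGC-CT replicate 3 (adjusted p down to 0.00428). CDKN1A and CDKN1B were called with the length trend removed (log2 0.44 and 0.22).

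In KD cells (poGC-KD against phGC-KD) the lower level of G2/M members in poGC was not seen for 4 of the 6. Of the 60 members, 46 were called, 25 higher and 21 lower, where 61.2% of all rows were called, 31.1% higher and 30.1% lower, and 22 passed under the study's rule, beside 38.0% of all rows. CDK1 was higher in poGC-KD than in phGC-KD (log2 0.22, standard error 0.07, adjusted p = 0.0166), as were CCNB3 (log2 0.36) and CCNF (log2 0.49). CCNB2 stood at -0.04 (standard error 0.06, adjusted p = 0.618). CKS1B and CKS2 remained lower in poGC (log2 -0.67 and -0.78, adjusted p = 6.63e-05 and 0.000155). The CDK1 call was lost with upper-quartile normalization (adjusted p = 0.0654), whereas its lower level in CT cells was called under each of the alternatives tried. In the S phase role, 6 members were higher and 3 lower, with RBL1 at 2.86-fold, E2F8 at 2.58-fold and SKP2 at 1.72-fold of phGC-KD, and CDK2 at 74.3%, CCNE1 at 71.7% and CCNA1 at 31.4%. Among the inhibitors, CDKN2C was higher (2.83-fold, adjusted p = 0.000169), and CDKN1A, CDKN1B and CDKN2B were lower in poGC-KD (adjusted p = 0.00121, 0.00893 and 0.0349). The CDKN2B call was lost without poGC-KD replicate 1 or 2 or phGC-KD replicate 2 or 4 (adjusted p up to 0.0833), and that of CCNE2 (log2 0.38, adjusted p = 0.0263) without poGC-KD replicate 1, 2 or 4 or phGC-KD replicate 1 (adjusted p up to 0.0684).

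**Figure D4:**
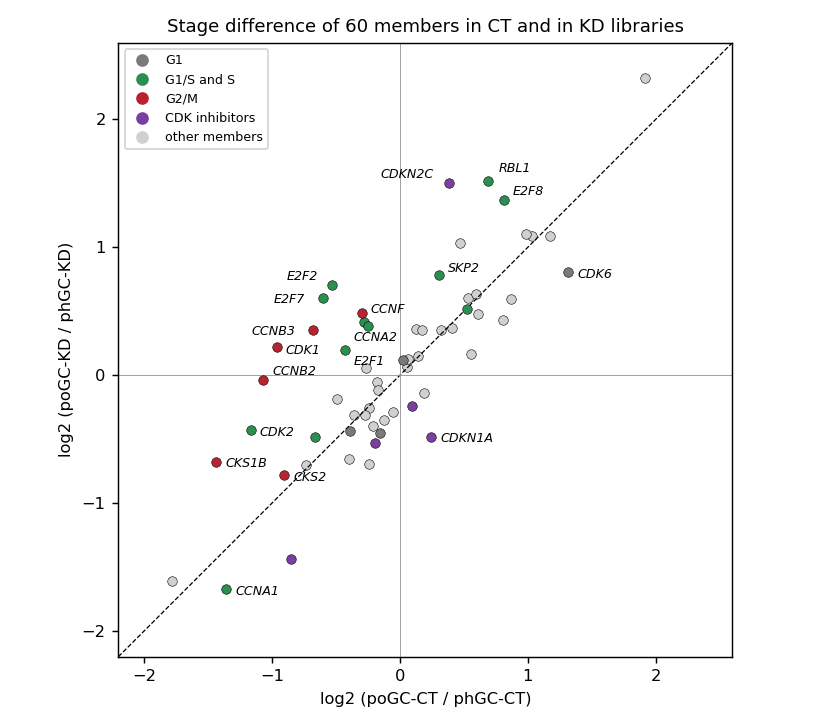
Log2 difference between poGC and phGC in CT libraries (x axis) and in KD libraries (y axis) for the 60 members, coloured by role. Both axes use log2 fold change, and the dashed line marks equal values. CDK1 moves from -0.96 to 0.22 and CCNB2 from -1.07 to -0.04, while CKS2 stays near the line, at -0.90 and -0.78.

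The change of the stage difference with the siRNA is the same quantity as the difference between the knockdown effects, tested by the interaction term over the 16 libraries. It was called for 15 of 60 members, 12 with a more positive effect in poGC and 3 with a more negative one, where 9.25% of all rows were called, 4.47% with a positive and 4.78% with a negative difference. Under the study's rule 14 passed, beside 8.72% of all rows. Of the G2/M role 5 of 6 were called, with CKS2 not called (log2 0.13, adjusted p = 0.663), and of the S phase role 5 of 12 (E2F7, CDK2, CCNE2, E2F1 and SKP2). None of the G1 role was called. The other positive calls were TFDP1 (log2 0.33, adjusted p = 0.0335) and CDK18 (log2 0.57), and the negative ones CDKN1A, CDKN1B and CCNG1, a p53-induced cyclin (log2 -0.24, adjusted p = 0.0146). TFDP1 lost its call in 9 of the 16 fits that left out 1 library, those without poGC-KD replicate 1, 2 or 3, poGC-CT replicate 1, 3 or 4 or phGC-KD replicate 2, 3 or 4 (adjusted p up to 0.0764). Of the 17 E2F targets 14 and of the 8 proliferation markers 8 were called with a more positive effect in poGC. FOXL2 itself was separated between KD and CT in poGC (394 to 503 against 688 to 777 CPM) and overlapped in phGC (361 to 508 against 471 to 681 CPM). The 2 knockdowns compared here were thus not shown to be equal in extent, and the part of this in the differences was not tested.

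Gene length moved with the stage differences and is given beside them. Across all rows tested, the Spearman correlation of the log2 fold change with relative gene length was 0.30 in the CT stage comparison and 0.28 in that of KD cells, and 0.0381 in comp. poGC, 0.156 in comp. phGC and -0.0852 for the interaction. Rows are not independent replicates, and these are descriptions. Over the 60 members it was 0.60 and 0.57 in the stage comparisons. CKS1B and CKS2 are short, at 0.193 and 0.198 of the median gene, as is CDK1 at 0.416, and CDK6 is long at 5.15. With the length trend of each library removed, 41 members were called in the CT stage comparison, 32 of the 38 among them, beside 64.1% of all rows. CDK1 then stood at -0.69, CCNB2 at -0.85 and CKS1B at -1.02 on the log2 scale, and all 6 G2/M members were still lower in poGC-CT. RBL1 and RB1 then lost their calls (adjusted p = 0.126 and 0.207). The part of length in the stage differences was not tested further. In KD cells 40 members were called, 36 of the 46 among them, beside 60.1% of all rows. Among the calls lost were those of CDK6, CDK2, E2F7, CDKN1B and CDKN2B, CDK6 with 0.10 in place of 0.81. The comp. poGC calls of all 26 members were kept.

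**Figure D5:**
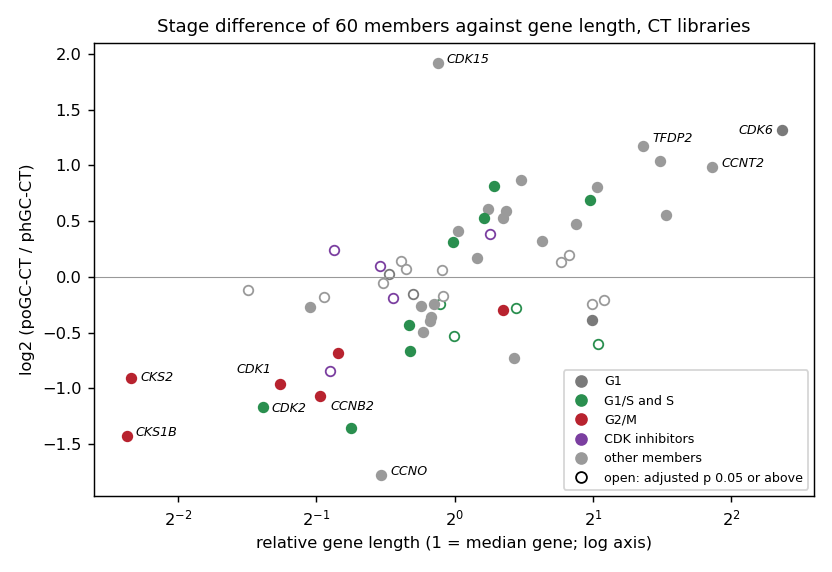
Log2 difference between poGC-CT and phGC-CT against relative gene length (1 is the median gene, log axis) for the 60 members, coloured by role, with open points for an adjusted p of 0.05 or above. The short genes CKS1B and CKS2 lie low and the long CDK6 lies high.

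Levels can be compared between genes only per length, for which the deposited FPKM values were used. Over the 16 libraries, CKS1B (mean 112 FPKM), CCNI (92.4), CDKN2B (90.0) and CCNB2 (78.0) were the most abundant members, and CCNO (0.840) and E2F7 (0.874) the least among those tested. In poGC-CT, CDKN2B led with 93.3 FPKM ± 5.22 (SD, n = 4), with CCNI at 89.0 ± 1.17, a difference within the spread of CDKN2B, whereas in phGC-CT CKS1B led with 184 ± 25.9. CDK1 had 29.3 FPKM in poGC-CT, 70.5 in poGC-KD, 60.1 in phGC-CT and 60.8 in phGC-KD. The FPKM of a library summed to 361671 to 389264 in poGC and to 424342 to 482720 in phGC. Differences of a gene between the stages are therefore to be read from the normalized CPM above. The D-type cyclins ranked as CCND1 (32.1 FPKM), CCND2 (21.7) and CCND3 (9.42) in poGC-CT, and the CCND1 libraries, with an SD of 7.59 FPKM, were the most variable of the 3.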

How the data were processed

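Reads from 16 polyA-selected libraries (4 groups of 4) had been aligned to the chicken genome and summarised per gene by the authors. Methods text names TopHat2, Gallus_gallus-5.0 and DESeq, while the submitters' processing notes name HISAT2 2.1.0, StringTie 1.3.4d and DESeq2 1.26.0. The counting program and its strand setting are not given in the sources used here, so overlapping and antisense genes cannot be told apart. The deposited raw counts per gene were tested, and the deposited FPKM values, which the authors scaled by gene length and depth, served only to compare levels between genes and to derive relative gene length.

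Members were matched by symbol, and 187 rows share a symbol with another row. The members and lists were chosen with earlier results of these data known. In R 4.3.3, edgeR 4.0.16 (TMM, filterByExpr by group, quasi-likelihood test, Benjamini-Hochberg adjustment over all rows tested) was fitted to each pair of groups, and to all 16 libraries for the interaction. Library totals of 29979116 to 56121795 set the precision, and no 2 libraries held identical values. On simulated data, 62% of rows with a true log2 change of 1 were found for comp. poGC and 42% for the interaction. Far fewer rows were changed there than were called in the real comp. poGC, so these shares need not hold for the real data.

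Values are given for members called with a fold above 1.5 in a comparison of 2 groups or called in the interaction. They were taken up to 25 in the order of roles, and the main G1, S and G2/M genes were added whatever their values. The values stand by library, as a range or as a fold change, and not for every group of each member. In all, 37 members met the rule. Those past its limit of 25 were CCNL1, CCNL2, CCNT2, CDK19, CCNG1, CCNG2, CCNI2, CCNO, CCNY, CDK15, CDK17 and CDK18. CDK5, CDK7, CDK9, CDK12, CDK14, CCNI, CDKN2A and E2F3 are outside the rule. Members of both sets whose values are given were named after their values were seen. CDK15, not described above, had the largest stage difference of the members tested, being higher in poGC (log2 1.92 in CT and 2.33 in KD cells). Alternatives were upper-quartile normalization, DESeq2 1.42.0, other filters (at least 1 count, at least 10 counts in every library), the study's rule (unadjusted p under 0.05 and fold above 1.5), a block for the replicate number, one model over all 16 libraries, each library left out, and removal of the length trend (lowess span 0.3), the last chosen after seeing the data. A planned search of promoters for motifs was not run.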

Additional observations from a re-analysis of the deposited data

Results flagged for a closer look

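In 5 groups 1 library stood far from the other 3 in normalized CPM. CCNA2 was at 103 CPM in poGC-KD replicate 1 against 68.5 to 70.7 in the others. CCNE2 was at 11.4 CPM in poGC-CT replicate 2 against 9.14 to 9.41. E2F1 was at 37.9 CPM in phGC-KD replicate 2 against 31.2 to 31.8. CDK1 was at 74.7 CPM in phGC-KD replicate 1 against 85.3 to 87.1. TFDP1 was at 23.2 CPM in poGC-CT replicate 2 against 21.9 to 22.0. Of 116 groups examined, 5.8 would pass by chance at 5%.

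For 15 members the knockdown effect differed between poGC and phGC by edgeR's interaction test. On the log2 scale the effect in poGC was more positive by 1.21 for E2F7, 1.20 for CDK1, 1.05 for CCNB3, 1.04 for CCNB2, 0.79 for CCNF, 0.77 for CKS1B, 0.74 for CDK2, 0.64 for CCNE2, 0.63 for E2F1, 0.57 for CDK18, 0.48 for SKP2 and 0.33 for TFDP1. The difference was -0.72 for CDKN1A, -0.32 for CDKN1B and -0.24 for CCNG1. FOXL2 itself overlapped between KD and CT in phGC and not in poGC, and the part of this in these differences was not tested.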

How the results depend on the processing

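Of 79 called values of named members, none changed sign under 1276 alternative values. With the study's rule (unadjusted p under 0.05 and fold above 1.5) the members called fell to 14 in comp. poGC, 4 in comp. phGC, 22 in the CT stage comparison and 22 in that of KD cells. Of all rows, 11.2%, 7.27%, 41.7% and 38.0% passed that rule. In comp. phGC the 7 calls became 15 with DESeq2, 4 with all rows of at least 1 count, 16 in a single fit of 16 libraries and 13 with the length trend removed. The shares of all rows called were 16.4%, 6.52%, 17.4% and 14.6%, against 9.97% in the main fit. With 1 library left out, counts ran from 25 to 28 in comp. poGC, 1 to 8 in comp. phGC, 36 to 42 in CT, 43 to 47 in KD and 12 to 19 for the interaction. The cause of these shifts was not tested.

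With the replicate number as a block, 24 members were called in comp. poGC, 4 in comp. phGC, 40 in CT, 44 in KD and 15 for the interaction. Of all rows, 21.9%, 7.71%, 62.1%, 56.7% and 8.74% were called with the block. The block ended the calls of RBL2 in comp. poGC (adjusted p = 0.0546), CKS2 and E2F8 in comp. phGC (0.0534 and 0.0501), and CCNE2 in KD cells and for the interaction (0.054 and 0.0643), and with it CDKN1A and E2F7 were called in CT (0.00933 and 0.0231), all by edgeR. Same-numbered libraries did not deviate together (correlations from -0.0903 to 0.122), and no source says that a number marks a hen. Only replicate 1, in comp. phGC and in the CT stage comparison, correlated best with its own number.

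Signs turned only for values not called. With upper-quartile normalization CCNA1 in comp. poGC was -0.0118, CDK1 in comp. phGC -0.00261, CCND1 in the CT stage comparison -0.0622 and TFDP1 in that of KD cells -0.0035. CCNA1 in comp. poGC was -0.00316 with DESeq2, -0.00321 with at least 10 counts in every library and -0.00745 in the single fit. With the length trend removed TFDP1 in comp. phGC was 0.00557, CCNB2 in KD cells 0.153, and the interactions of CCND2 and TFDP2 were 0.0115 and 0.0296. Leaving out 1 library gave -0.0528 to 0.0536 for CCNA1 in comp. poGC. In comp. phGC it gave -0.120 to 0.0011 for CCNB3, -0.0303 to 0.0555 for CDK1, -0.130 to 0.153 for CDKN2C, -0.00681 to 0.374 for E2F7, -0.0028 to 0.381 for RBL1 and -0.0552 to 0.0396 for TFDP1. In CT it gave -0.0806 to 0.107 for CCND1 and -0.233 to 0.0215 for CCND3, and for the interaction -0.0987 to 0.0184 for CCND2, -0.029 to 0.162 for RBL2 and -0.185 to 0.207 for TFDP2.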

Other observations

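CDKN2A was not called in any comparison and is named here after its values were seen. It had 24.9, 25.5, 5.73 and 21.5 CPM in poGC-CT, 14.6, 12.7, 14.9 and 5.81 CPM in poGC-KD, 42.7, 39.3, 15.5 and 41.2 CPM in phGC-CT and 41.3, 40.6, 5.37 and 41.7 CPM in phGC-KD. Each group thus held 1 low library, replicate 3 in poGC-CT, phGC-CT and phGC-KD and replicate 4 in poGC-KD.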
